A study of Sus scrofa with 30 samples.

Results

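Liver RNA of 12 female pigs was compared across 3 weeks of feed restriction: 6 pigs sampled before restriction (T1) and 6 pigs sampled at its end (T2), of 30 pigs in the whole series. The pigs were chosen by their labels. At T1 these were 3 pigs of normal birth weight (N_T1, 1.4 to 1.6 kg) and 3 of low birth weight (U_T1, 0.8 to 1.1 kg), all fed freely. At T2 they were 3 pigs of normal birth weight (NR_T2) and 3 of low birth weight (UR_T2) that had received 50% of the freely eaten amount. The sample labels date T1 to day 76 and T2 to day 97, while the text of the series gives day 75 and day 98. For T3, the later time point after refeeding that is quoted in places below, the labels give day 103 and the series text day 131 after 5 weeks of refeeding. Freely fed controls at T2 (NK_T2 and UK_T2, 3 pigs each) were used to show how far the change differed from that of pigs of the same age. All were adolescent females, and the piglets of both birth weights were picked within litters. Age, the feed described for each period and restriction all changed between T1 and restricted T2, so within those 12 pigs they cannot be told apart.

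The liver buffers the body against a shortage of feed. When intake falls, it releases stored glucose, makes new glucose from amino acids and glycerol, and burns fatty acids in place of making them. In a young pig these responses run alongside the changes of growth itself, as the liver takes over adult metabolism and the immune system matures.

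Each array held 60900 pig probes, each 60 bases long, and none carries a gene name or a genome position in the tables used here. The results are therefore given by probe, by probe sequence and by families of probes that share sequence, and the labelled tissue was not checked against marker genes. A level below is the log2 of the processed signal minus the 75th percentile of the same array, so 0 is the brightness of a fairly bright probe of that array, and a change of 1 is a 2-fold difference. On the 12 arrays between 61.5% and 74.3% of probes were well above background, and the 75th percentile of the signal lay between 304 and 634. The number of arrays limits the precision.

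The probes with the largest changes are shown first, since their sequences are what identifies them. They were taken from the probes that passed the test, were well above background on all 12 arrays and had no overlap between the 6 and 6 values.
PigEx0025852: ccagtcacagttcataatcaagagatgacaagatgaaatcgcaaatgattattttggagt
PigEx0005083: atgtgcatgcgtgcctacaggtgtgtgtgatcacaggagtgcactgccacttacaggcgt
PigEx0008618: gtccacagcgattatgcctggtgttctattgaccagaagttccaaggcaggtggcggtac
PigEx0008616: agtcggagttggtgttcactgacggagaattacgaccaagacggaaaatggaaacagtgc
The first pair rose and the second pair fell.

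Livers of restricted pigs at T2 differed from livers at T1 in 900 of 39962 probes tested (2.25%), of which 459 were higher (1.15%) and 441 lower (1.1%). The higher probes had a median change of 1.05, with a range from 0.396 to 3.54, and 242 of them rose by more than 2-fold. The lower probes had a median change of -0.936, with a range from -4.42 to -0.382, and 187 fell by more than 2-fold. The median change of all probes tested was -0.007. Probes were called with limma at a Benjamini-Hochberg adjusted p under 0.05, and 7160 probes (17.9%) had an unadjusted p under 0.05. The fit took the pigs as independent, although same-numbered pigs of the 2 birth weights deviated together within a time point, as given below. Where such pigs are linked, the p-values of the average may be too small. The 6 and 6 values did not overlap for 241 of the 459 higher probes and 256 of the 441 lower ones. Of all probes 2.37% did not overlap, 1.13% in the higher and 1.25% in the lower direction. The calls were made from these same values, so a larger share among them follows from the choice.

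The count of calls depended on single pigs and on the slide. It was 50 with slide as a block, and 84 within the slides that hold arrays of both time points, where 6 pigs at T1 stood against 3 restricted pigs. Of the pigs at T1, leaving out normal birth weight replicate 1 gave 429 calls and replicate 2 gave 294, and leaving out low birth weight replicate 1 gave 453 and replicate 2 gave 508. Of the restricted pigs, leaving out NR_T2 replicate 1 gave 218, UR_T2 replicate 1 gave 411 and UR_T2 replicate 3 gave 319.

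**Figure D1:**
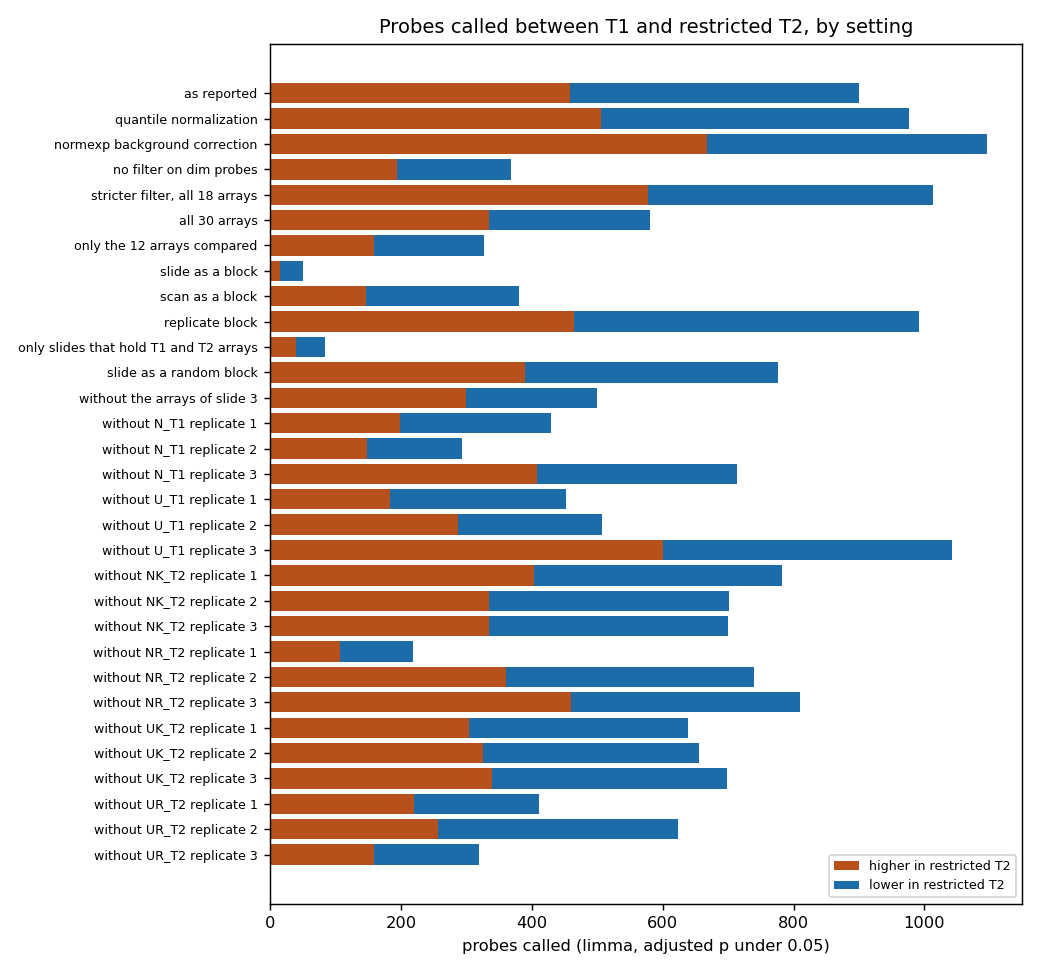
Number of probes called higher (orange) and lower (blue) in restricted pigs at T2 than at T1, on the horizontal axis, for the fit as reported and each other setting. The reported 900 calls fell to 50 with slide as a block and rose to 1095 with normexp background correction.

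PigEx0025852 had the largest rise among the called probes that were well above background on all 12 arrays and had no overlap. Its level at T1 was -0.762, -0.52 and -0.117 in normal and -0.524, 0.005 and 0.238 in low birth weight pigs. In restricted pigs at T2 it was 2.579, 1.383 and 2.128 in normal and 2.319, 2.79 and 2.024 in low birth weight pigs. Every restricted pig lay above every pig at T1. The change was 2.48 (SE 0.31, limma adjusted p = 0.00501), a 5.59-fold rise, and it was 2.5 in normal and 2.47 in low birth weight pigs. The freely fed controls at T2 were as high, from 0.832 to 3.124, and the difference between restricted and control pigs was 0.122 (limma adjusted p = 0.909). The probes numbered just before it, PigEx0025850 and PigEx0025851, share at most 6 bases in a row with it and rose by 2.33 and 2.42.

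PigEx0005083 had the next largest rise outside that run of numbers. Its level at T1 was 2.231, 0.067 and 0.706 in normal and 1.502, 2.047 and 0.44 in low birth weight pigs. In restricted pigs at T2 it was 3.983, 2.266 and 3.924 in normal and 3.741, 3.004 and 4.012 in low birth weight pigs. The groups came close without overlapping, at 2.231 in N_T1 replicate 1 and 2.266 in NR_T2 replicate 2. The change was 2.32 (SE 0.417, limma adjusted p = 0.0155), a 5.0-fold rise. Controls at T2 ranged from 2.186 to 3.579, and restricted pigs differed from them by 0.479 (limma adjusted p = 0.689). The call was lost with slide as a block (adjusted p = 0.104) and within the shared slides (adjusted p = 0.128).

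PigEx0008618 had the largest fall among the probes that met the conditions on brightness and overlap. Its level at T1 was 0.855, 0.773 and 0.087 in normal and 0.645, 0.674 and -0.227 in low birth weight pigs. In restricted pigs at T2 it was -1.751, -1.856 and -3.534 in normal and -2.944, -4.226 and -4.182 in low birth weight pigs. All 6 restricted pigs were lower, and the low birth weight pigs spread further down. The change was -3.55 (SE 0.48, limma adjusted p = 0.00769), an 11.7-fold difference. Controls at T2 were also low, between -3.667 and -0.889, and the restricted pigs lay -0.757 from them (limma adjusted p = 0.58). At T3 formerly restricted pigs lay between -1.526 and 0.897, and controls, which were never restricted, between -0.259 and 1.392. The call was lost with slide as a block (adjusted p = 0.0721) and within the shared slides (adjusted p = 0.0556).

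PigEx0008616 carries a number close to it and moved the same way. Its level was between 0.141 and 1.121 at T1, between -3.752 and -1.369 in restricted pigs at T2 and between -3.376 and -0.54 in controls at T2. The 6 values at T1 were all above the 6 of the restricted pigs, which the choice of the probe required, while controls and restricted pigs overlapped. The change was -3.38 (SE 0.479, limma adjusted p = 0.00787), and the difference from controls was -0.512 (limma adjusted p = 0.715). With slide as a block its adjusted p was 0.0799, and within the shared slides 0.0519.

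**Figure D2:**
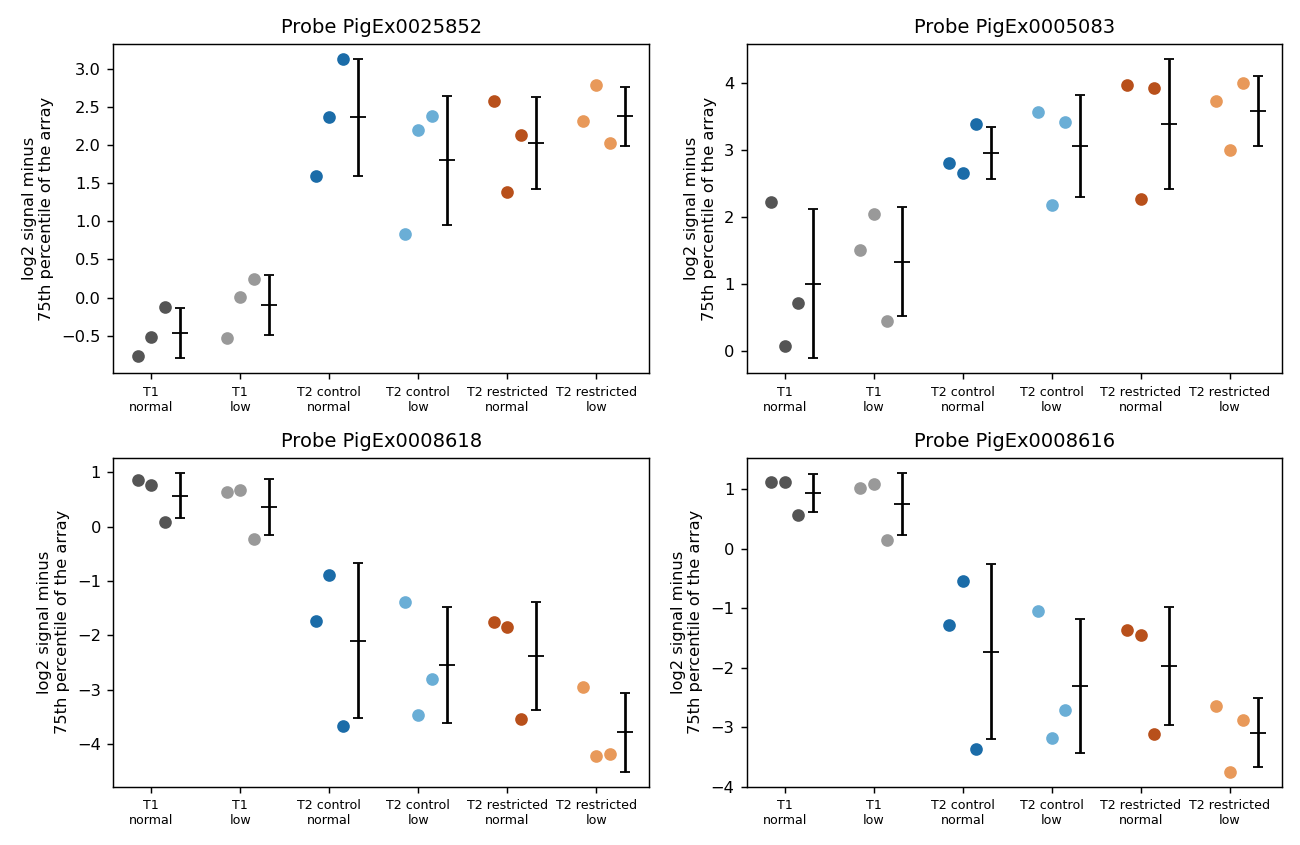
Level of 4 probes on each array (vertical axis, log2 signal minus the 75th percentile of the array) by birth weight, feeding and time point. Each point is a pig, and the bar beside the points is the mean with the SD over 3 pigs. The T1 pigs stand apart from the restricted pigs in all 4 probes, which the choice of these probes required. The T1 pigs also stand apart from the controls at T2 in all but PigEx0005083, where 2.231 in a pig at T1 lies above 2.186 in a control. Restricted and control pigs overlap.

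The fixed rule behind these names covers 15 rises and 15 falls, which fall into 9 and 10 runs of consecutively numbered called probes. The rises ranged from 1.75 to 2.48 and the falls from -3.55 to -1.74. In controls the same 15 rising probes changed by 0.537 to 2.36 and the 15 falling ones by -2.87 to -1.1, all in the same direction. Both changes start from the same T1 pigs. The smallest adjusted p for restricted against control pigs at T2 was 0.362 among the rises and 0.382 among the falls. Across all probes, the changes of neighbouring numbers went together: Pearson's r was 0.569 for consecutive numbers, 0.33 at a distance of 2 and 0.0718 at 3. These are correlations across probes on the same arrays, which are not independent replicates.

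The changes of a large family of related sequences were all in 1 direction. Probes that share a run of 25 bases were linked, and a family holds all probes linked directly or through other probes. Members of a family therefore need not all share the same run. The grouping was made from sequence alone but chosen after the calls had been seen, and 8 families hold at least 10 probes. The probes below show the runs shared most often, in capitals, in the 3 large families that hold probes called higher.
PigEx0016607: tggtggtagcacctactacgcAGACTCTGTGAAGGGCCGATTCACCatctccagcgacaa
PigEx0027409: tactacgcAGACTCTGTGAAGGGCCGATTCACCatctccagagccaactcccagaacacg
PigEx0016605: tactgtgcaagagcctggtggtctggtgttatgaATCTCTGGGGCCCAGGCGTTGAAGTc
PigEx0016639: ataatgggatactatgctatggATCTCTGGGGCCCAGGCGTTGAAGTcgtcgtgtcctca
PigEx0016736: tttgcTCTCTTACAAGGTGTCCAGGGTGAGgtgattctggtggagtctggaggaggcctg
PigEx0016659: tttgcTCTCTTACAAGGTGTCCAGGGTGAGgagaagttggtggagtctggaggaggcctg
The first pair belongs to the first and largest family, the second pair to the family numbered 4 by size and the last pair to family 5. The first shared run is present in 31 probes, the second in 22 and the third in 10.

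All 167 probes of the first family passed the brightness filter, and all 167 changes were above 0, with a median of 1.28 and a range from 0.351 to 1.80. Of these, 65 were called higher, beside 1.15% of all probes. The median was 1.3 in normal and 1.27 in low birth weight pigs. Because its members are linked by shared sequence, the family is not 167 separate observations. Its mean level at T1 was -1.44, -1.74 and -0.609 in normal and -2.51, -2.06 and -1.09 in low birth weight pigs. In restricted pigs at T2 it was -0.0187, 0.845 and -0.697 in normal and -0.651, -0.25 and -1.08 in low birth weight pigs. The groups overlapped: N_T1 replicate 3 and U_T1 replicate 3 were the highest at T1, and UR_T2 replicate 3 was the lowest restricted pig.

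The controls at T2 lay between the others on average, with means of -1.76, -0.925 and -0.875 in normal and -1.01, -1.71 and -0.737 in low birth weight pigs. The median difference between restricted and control pigs was 0.854 over the family, and 157 of the 167 probes had an unadjusted p under 0.05, beside 10.8% of all probes. None passed the adjusted test, the smallest adjusted p being 0.382. At T3 the family mean was -0.371 in controls, which were never restricted, and -0.256 in formerly restricted pigs. In restricted pigs at T2 it was -0.308. The number of members called from T1 to restricted T2 was unstable. It was 0 with slide as a block and 0 within the shared slides, 1 with scan as a block and 1 with only the 12 arrays compared, and 3 with no filter. It was 107 with normexp background correction, 108 with the stricter filter and 109 without the arrays of slide 3. Leaving out 1 array gave between 1 (N_T1 replicates 1 and 2, U_T1 replicate 1, NR_T2 replicate 1 and UR_T2 replicate 1) and 153 (U_T1 replicate 3). Other counts more than 1.5 times away were 2 without U_T1 replicate 2, 2 without UR_T2 replicate 2, 5 without NR_T2 replicate 2, 10 without UR_T2 replicate 3, 105 without N_T1 replicate 3, 143 without NR_T2 replicate 3, and 25, 26, 19, 42 and 31 without NK_T2 replicates 2 and 3 and UK_T2 replicates 1, 2 and 3. The median change stayed between 0.994 and 1.59 in all 30 alternatives.

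Family 4 had a median change of 1.11 over the 28 of its 29 probes that passed the filter, and 5 were called, beside 1.15% of all probes called higher. That count was 0 with slide as a block, with scan as a block, within the shared slides and with only the 12 arrays, 1 with no filter, 9 with normexp, 10 with the stricter filter and 17 without slide 3. It was 0 without N_T1 replicate 1 or 2, NR_T2 replicate 1 or UR_T2 replicate 1, and 19 without NR_T2 replicate 3. It was 1 without U_T1 replicate 1 or 2, NR_T2 replicate 2 or UR_T2 replicate 2 or 3, 10 without N_T1 replicate 3 and 14 without U_T1 replicate 3. Of the controls, leaving out NK_T2 replicate 2 or 3 or UK_T2 replicate 1 gave 2, and UK_T2 replicate 2 or 3 gave 3. Its array means ran from -2.79 to -1.43 at T1 and from -1.97 to 0.027 in restricted pigs at T2. Family 5 had a median change of 1.37 over 14 probes, with 8 called, beside the same 1.15%. That count was 0 with no filter, slide as a block, scan as a block, within the shared slides and with only the 12 arrays, and 14 with the stricter filter and with all 30 arrays. It was 0 without N_T1 replicate 1 or 2, U_T1 replicate 1 or 2, NR_T2 replicate 1 or 2 or UR_T2 replicate 1 or 2, 1 without UR_T2 replicate 3, and 14 without replicate 3 of N_T1, U_T1 or NR_T2. Leaving out NK_T2 replicate 2 or 3 or UK_T2 replicate 1 gave 3, and UK_T2 replicate 3 gave 4. Its array means ran from -2.67 to -0.585 at T1 and from -0.984 to 0.75 in restricted pigs at T2. In both families the groups overlapped. At T3 the means of families 4 and 5 were -1.16 and -0.472 in controls and -0.932 and -0.241 in formerly restricted pigs. In restricted pigs at T2 they were -1.15 and -0.295. Together the first family and families 4 and 5 hold 78 of the 459 probes called higher, or 17%. They have 167, 28 and 14 of the 39962 probes tested. No large family holds a probe called lower. The large families have 339 probes that passed the filter, and 1.1% of all probes were called lower, so that lack says little.

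The second family is shown as a family whose level stayed close to that at T1, with its most shared run in capitals.
PigEx0009863: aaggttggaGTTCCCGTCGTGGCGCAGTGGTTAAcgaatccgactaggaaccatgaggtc
PigEx0059515: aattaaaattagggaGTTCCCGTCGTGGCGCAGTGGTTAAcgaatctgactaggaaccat
Its 82 probes were very bright, with a median level of 8.99 at T1. Array means lay between 8.71 and 8.87 at T1 and between 8.53 and 8.91 in restricted pigs at T2. The median change was -0.0554 and no member was called. The third family of 35 probes had a median change of -0.057, and none was called. Of all probes 2.25% were called, so the lack of calls says little about families of this size. Neither median has a settled sign: with slide as a block, with scan as a block, within the shared slides and without slide 3 it was 0.0603, 0.0398, 0.0619 and 0.00947 for the second family and 0.19, 0.0811, 0.128 and 0.121 for the third. Without NR_T2 replicate 3 the medians were 0.00148 and 0.0306, and without UR_T2 replicate 3 the third family's was 0.0175.

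**Figure D3:**
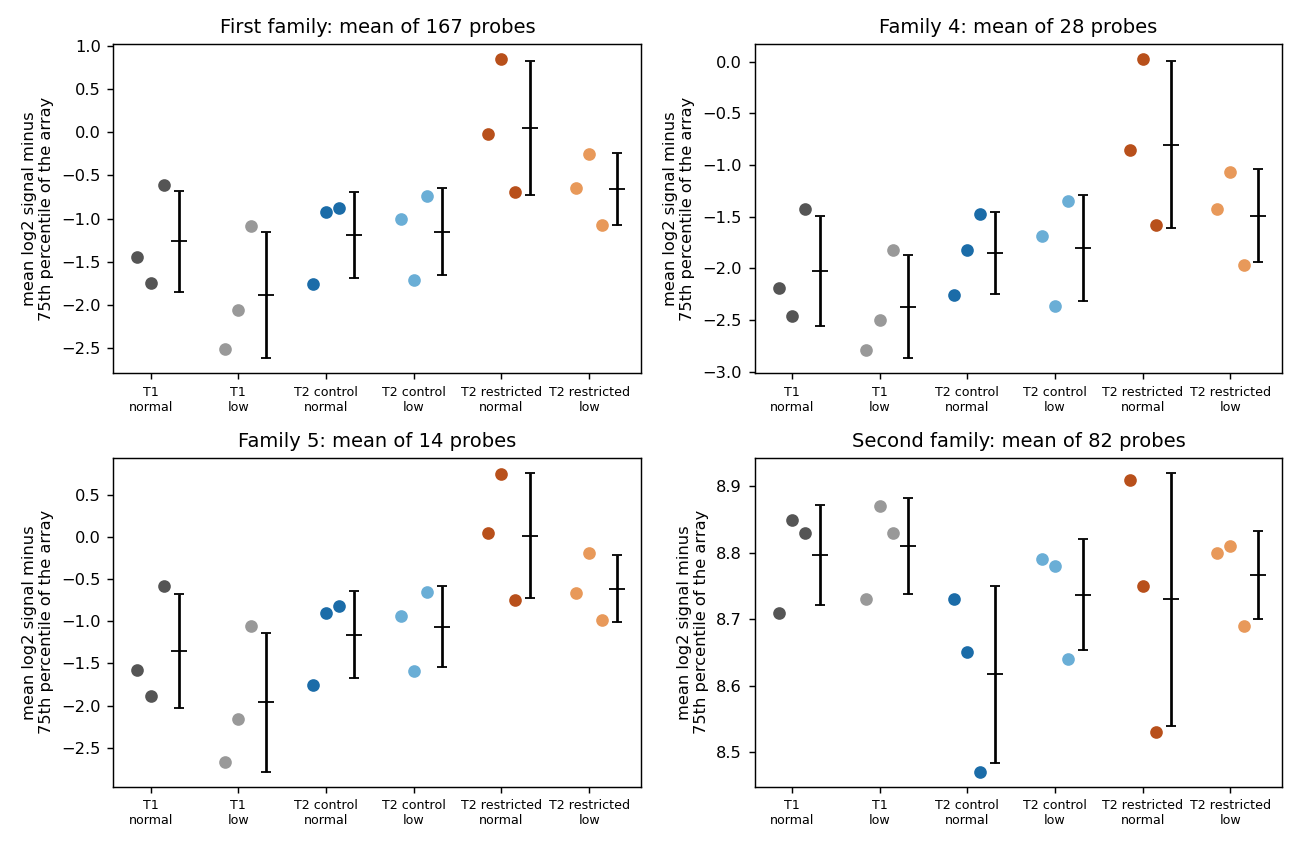
Mean level of 4 probe families on each array (vertical axis, mean log2 signal minus the 75th percentile of the array) by group. Each point is a pig, and the bar beside the points is the mean with the SD over 3 pigs. Among the T1 and T2 groups shown, restricted pigs lie highest on average in the first family and in families 4 and 5, with overlap. The second family stays between 8.47 and 8.91.

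Taken within each birth weight, 3 pigs against 3, low birth weight pigs had 27 called probes (0.0676%), 8 higher (0.02%) and 19 lower (0.0475%), and normal birth weight pigs had 0 (0%). The unadjusted p was under 0.05 for 5058 probes (12.7%) in low and 3285 (8.22%) in normal birth weight pigs. When the 2 changes were tested against each other with limma, 0 probes passed (0%) and 919 (2.3%) had an unadjusted p under 0.05, so no probe was shown to change differently by birth weight. Where same-numbered pigs of the 2 birth weights are linked, the p-values of this difference may be too large. The low birth weight count fell to 0 with slide as a block, within the shared slides and with no filter on dim probes, and ranged from 0 to 107 when 1 array was left out.

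The changes in the 2 birth weights share no array. They are still not fully separate, since piglets of both were picked within litters and some of their arrays shared a slide. Across probes, the deviations of same-numbered normal and low birth weight pigs from their group means correlated by 0.404 to 0.495 at T1 and by 0.207 to 0.356 in restricted pigs at T2. Some same-numbered pigs also shared a slide: replicate 2 at T1 (slide 1), and replicates 1 (slide 2) and 3 (slide 3) of the restricted pigs. Whether litter or slide lies behind these correlations was not tested. Across 39962 probes the changes in the 2 birth weights had a Pearson's r of 0.542, and 67.6% of probes moved in the same direction in both. Of the 500 probes with the smallest p in normal birth weight pigs, 456 moved the same way in low birth weight pigs, with a median of 0.597 there beside 0.974 in the pigs that chose them. Of the 500 chosen in low birth weight pigs, 480 moved the same way in normal birth weight pigs, with medians of 0.646 and 1.24. An unadjusted p under 0.05 in the same direction in both was found for 1299 probes, which is 39.5% of those in normal and 25.7% of those in low birth weight pigs, and 15 probes had one in opposite directions. These are descriptions across probes measured on the same arrays.

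**Figure D4:**
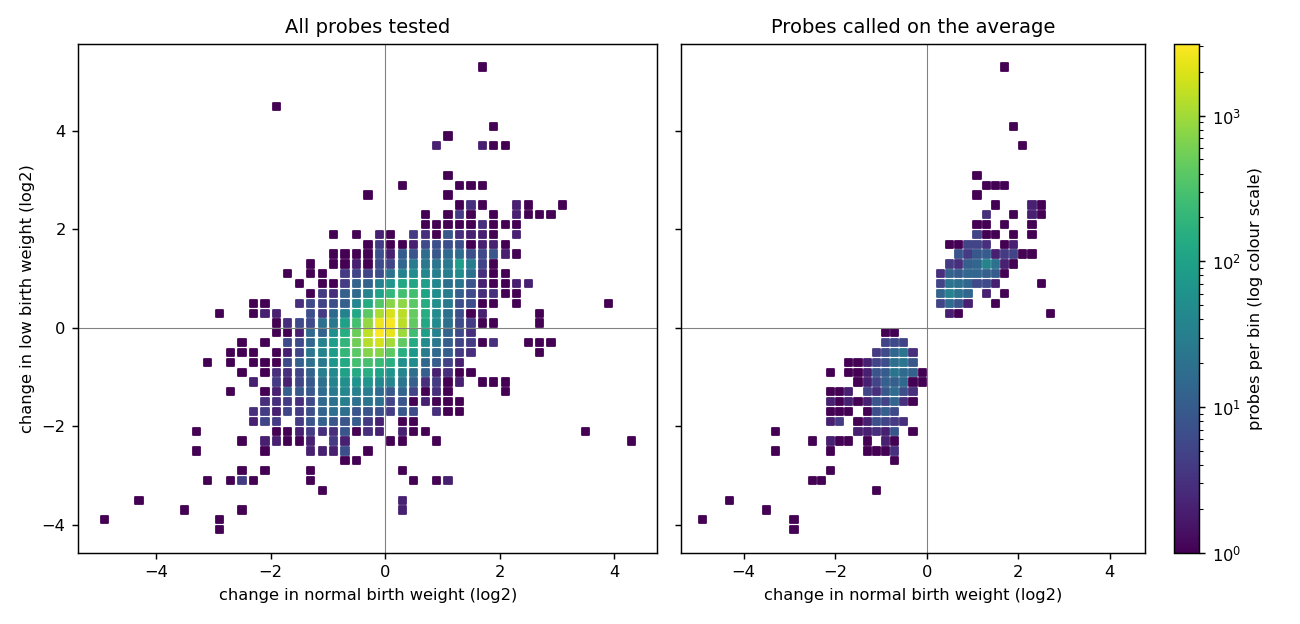
Change from T1 to restricted T2 in normal (horizontal axis) and low birth weight pigs (vertical axis), both log2, for all probes tested and for the 900 called on the average. Each square is a bin coloured by its number of probes. The cloud of all probes is elongated along the diagonal (Pearson's r 0.542), and the called probes, selected on the average of both axes, all lie in the 2 quadrants of equal direction.

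Of the probes called in low birth weight pigs, 3 are shown as the largest changes there beside PigEx0008618, the largest fall.
PigEx0023734: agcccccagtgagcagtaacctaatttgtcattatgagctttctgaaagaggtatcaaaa
PigEx0008399: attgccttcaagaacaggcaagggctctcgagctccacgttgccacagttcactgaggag
PigEx0008349: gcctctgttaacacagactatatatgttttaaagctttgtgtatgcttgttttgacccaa
They were chosen by size within the low birth weight calls, after their values were seen, which favours a larger change there. PigEx0023734 went from 0.357, 1.162 and 1.83 at T1 to 3.854, 4.741 and 3.448 in restricted low birth weight pigs, a change of 2.90 (limma adjusted p = 0.0499), beside 1.53 in normal birth weight pigs (limma adjusted p = 0.414). PigEx0008399 went from -3.752, -2.154 and -1.521 to 0.223, 0.863 and -0.024, a change of 2.83 (limma adjusted p = 0.0421), beside 1.22 (limma adjusted p = 0.472). PigEx0008349 went from 0.662, -0.031 and -0.734 to -2.814, -2.194 and -2.439, a change of -2.45 (limma adjusted p = 0.0394), beside -0.77 (limma adjusted p = 0.644). For each of them the groups of low birth weight pigs were apart, which the condition of no overlap required. Over both birth weights, restricted pigs differed from freely fed controls at T2 by -0.123, 0.494 and -0.359. The limma adjusted p was 0.919, 0.6 and 0.644, in the order of the probes above. With slide as a block the averaged calls of all 3 were lost (limma adjusted p = 0.062, 0.0713 and 0.0748). Within the shared slides their limma adjusted p was 0.0431, 0.128 and 0.0881. The difference between birth weights had an adjusted p of 1 for all 3.

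The test of whether the change under restriction differed from that of freely fed pigs is restricted against control at T2. It called 0 of 39964 probes (0%) with limma, and 4331 (10.8%) had an unadjusted p under 0.05. The controls' own change from the same T1 pigs called 161 probes (0.403%), 84 higher (0.21%) and 77 lower (0.193%). For the 459 probes called higher under restriction the median change of controls was 0.525, and for the 441 called lower it was -0.694. The restricted pigs lay further from T1 than the controls for 418 of the 459 and 404 of the 441. Since these lists were chosen with the restricted arrays, that side is favoured by the choice.

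On single arrays, the mean of the 459 probes relative to T1 was 0.963 to 1.16 in restricted pigs at T2 and 0.42 to 0.851 in controls at T2. Without the large families, the remaining 381 probes had 0.868 to 1.10 and 0.519 to 0.847. The 441 probes called lower had means of -1.28 to -0.813 in restricted pigs and -1.02 to -0.549 in controls, which overlap. At T3 formerly restricted pigs had means of 0.371 to 0.939 for the first list and -0.604 to -0.161 for the lower list. Control pigs at T3 had 0.485 to 0.746 and -0.485 to -0.11. The arrays of T3 took no part in choosing the lists, and the T1 arrays are shared by all these values.

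**Figure D5:**
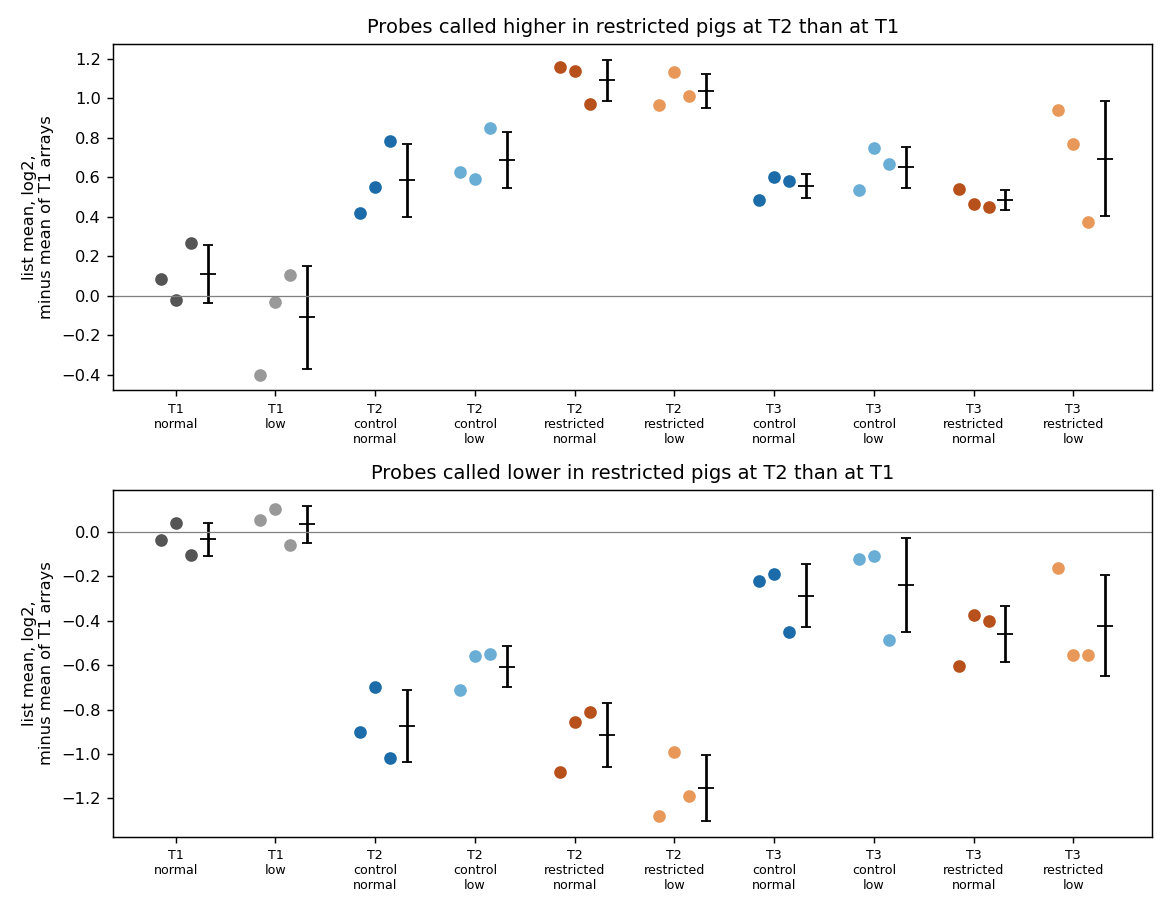
Mean over the 459 probes called higher (top) and the 441 called lower (bottom) on each array, log2, minus the mean of the T1 arrays (vertical axis), by group. Each point is a pig, and the bar beside the points is the mean with the SD over 3 pigs. The lists were chosen by the difference between T1 and restricted T2 arrays, in a fit whose spread and brightness filter also used the controls at T2. Control pigs at T2 lie on the same side of 0 as the restricted pigs in both lists.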

How the data were processed

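Labelled Cy3 RNA was read in 1 colour, 1 pig per array. Feature Extraction 10.5.1.1 wrote the deposited scanner files. Per the file headers, the intensity used here, the processed signal, has background removed and spatial trends corrected on each array. The marks for background and outliers used here are other deposited columns, per the file headers. The authors' deposited table of intensity values, named by human protein identifiers, was not used, since earlier work on these files found it normalized separately by time point.

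The log2 of the processed signal minus the 75th percentile of the array was taken, with outlier spots set to missing (200 probes affected). Dim probes were dropped unless some group of 3 had every array well above background, leaving 39964 of 60900. The 18 arrays of T1 and T2, in 6 groups of 3, entered 1 fit in limma 3.58.1 (R 4.3.3) with 12 residual and 3.3 prior degrees of freedom, and p-values were two-sided and Benjamini-Hochberg adjusted. Arrays of T3 stayed out because of their larger spread. Families were built with networkx and figures with matplotlib (Python 3.11.15). The fit was run on simulated data with independent noise for each probe and array, which does not cover linked pigs or slides.

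Members and lists were chosen with earlier results of these data known. The rule for named probes took the 15 largest rises and 15 largest falls among called probes well above background on all 12 arrays with no overlap. After the values were seen, 4 display choices were made: 2 probes a direction are printed, only the largest of a run of consecutive numbers is printed, probes of the low birth weight comparison were added, and family sequences were limited to probes well above background on all 12 arrays. Lists of genes by pathway and of cell type markers had been prepared and could not be applied, because no table used here pairs the probes with gene names.

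Slide and scan were read from the headers. T1 lay on slides 1 and 2, and restricted T2 on slides 1, 2, 3 and 5. All T1 arrays were in scan 1. Restricted T2 arrays were in scan 1 on slides 1 and 2 and in scan 2 on slides 3 and 5, so scan partly follows the time point. Both time points share slides 1 and 2, and slide 3 holds restricted pigs only among T1 and T2.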

Additional observations from a re-analysis of the deposited data

Results flagged for a closer look

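On the array of NR_T2 replicate 3, 26.7% of the ERCC control spots, which match synthetic control RNA and belong to no comparison, were well above background. The other 17 arrays of T1 and T2 had 0.714% to 12.1%. That array also had the highest share of pig probes well above background among the 12 compared, at 74.3%. Without it 810 probes were called, beside 900 with it, and 143 members of the first probe family, beside 65. Its part in these results was not tested.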

How the results depend on the processing

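The averaged comparison called 900 probes. It called 368 with no filter on dim probes, 581 with all 30 arrays, 327 with only the 12 arrays compared, 50 with slide as a block, 381 with scan as a block, 84 within the slides that hold both time points and 500 without the arrays of slide 3 (chosen after seeing the data). Leaving out 1 array gave 218 to 1042. The low birth weight comparison called 27: it called 60 with quantile normalization, 107 with normexp, 0 with no filter, 63 with the stricter filter, 9 with all 30 arrays, 5 with the 12 arrays, 0 with slide as a block, 130 with scan as a block, 0 within shared slides, 87 with slide as a random block and 0 without slide 3 (both chosen after seeing the data), and 0 to 107 without 1 array. Within shared slides the normal birth weight comparison called 10, the difference between birth weights 3 and restricted against control 12, all from 0; without 1 array they called 0 to 1, 0 and 0. Within shared slides, NR_T2 and NK_T2 each kept only replicate 1. Every count there that uses those groups rests partly on a single pig, so no conclusion is drawn from it. The causes of these changes in count were not tested.

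A replicate block changed the counts: the averaged comparison then called 992 probes and the low birth weight comparison 226. That block also links same-numbered pigs across T1 and T2, so it does not model links within a time point alone. Same-numbered pigs correlated above 0.1 in 2 of 6 pairs of groups, both within a time point (0.207 to 0.495), and in none across T1 and T2. Differently numbered pigs were not compared, so this does not settle whether the numbers link pigs across the 2 time points. Within a time point the numbers may pair the birth weights, but some same-numbered pigs also shared a slide. The 7 named probes kept their direction in all 30 alternatives, but most of these could not have reversed it. For each of the 7, the restricted values did not overlap those at T1, so leaving out a single array could not change the sign. Changing the filter, the replicate block or the arrays outside the comparison left the size of the change as it was. The kept direction is therefore little evidence of stability. The median change of the second family was 0.0603 with slide as a block and 0.0619 within shared slides. With runs of 20 bases the first family has 188 probes on the array and 72 calls, and with runs of 30 bases 92 probes and 46 calls. The mean over all probes of a gene was not run, because probes have no gene names here.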
